A study of Mus musculus with 6 samples.

Results

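The genes described here are 55 developmental transcription factor genes outside the Hox family, out of 26220 genes with a curated RefSeq transcript. They were taken by name, with no measured value in the rule, but with earlier results of these data known. They fall into 22 families. Of the 55, 48 encode homeobox, zinc finger or AP-2 proteins. The other 7 encode EBF factors (Ebf1, Ebf2 and Ebf3), nuclear factor I proteins (Nfia, Nfib and Nfix) and the basic helix-loop-helix protein TCF21, so the set is wider than the 3 classes of its description. All 55 symbols were found in the annotation.

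H3K27me3, trimethylation of lysine 27 on histone H3, was mapped by chromatin immunoprecipitation sequencing (ChIP-seq) in primary granulosa cells, the somatic cells that surround the oocyte. The cells came from ovaries of wild type C57BL/6J mice aged 8 to 9 weeks, were pooled across animals and were cultured in 6 dishes. The labels give no agent for 3 of the samples (control), while the other 3 were exposed to dihydrotestosterone (DHT, an androgen that aromatase cannot convert to estrogen) at 25 nM for 24 h. The authors deposited 1 peak list and 1 set of gene lists for each group, so a gene is either listed or not and has no value per sample. No error between replicates can be given for any count, the depth is unknown, and a difference between the control and DHT lists cannot be told apart from a difference in depth or enrichment between the pools. These files hold no expression values, so the cell type could not be checked by expression. Of 7 genes that mark granulosa cells, 2 were in the control and 2 in the DHT gene body list. Of 3 endothelial marker genes, 2 and 1 were listed, and of 3 immune marker genes 1 and 1. None of 4 theca and stroma markers or 3 oocyte markers was listed. Over all genes 11.9% (control) and 4.36% (DHT) were listed, and listing rose with gene length, so these counts do not identify the cell type.

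H3K27me3 is laid down by Polycomb repressive complex 2, whose catalytic subunit is EZH2 or EZH1, and removed by the demethylases UTX (KDM6A) and JMJD3 (KDM6B). Genes of developmental transcription factors are the classic targets of this complex: in tissues where such a factor is off, the mark often spreads from a promoter rich in CG dinucleotides across a compact gene or a whole gene cluster. Several of the factors have known roles in gonads. EMX2 is needed for the early gonad to form, SIX4 acts in the gonad before sex is determined, IRX3 and IRX5 act in granulosa cells of the growing follicle, and ZFPM2 (FOG2) is the partner of GATA4 in gonad development.

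Ebf1 was the member found in a promoter list, and Tfap2d and Tfap2b were the adjacent members that differed in their listing. Their upstream sequences are shown for that reason, as 250 bases before the annotated start, 5′ to 3′ on the strand of the gene, with each CG dinucleotide in capitals. CG reads the same on both strands. The sequences are from RefSeq in GRCm38.p6, which is not the build of the peaks (mm9), and all 4 lie on the plus strand. Ebf1 has 2 annotated starts 2128 bases apart (chr11:44617850-44618099 and chr11:44619978-44620227), and which start the authors used for the promoter list is not known. For Tfap2d the outermost of 3 starts is shown (chr1:19102772-19103021), and the Tfap2b sequence is chr1:19211804-19212053.
Ebf1 start 1: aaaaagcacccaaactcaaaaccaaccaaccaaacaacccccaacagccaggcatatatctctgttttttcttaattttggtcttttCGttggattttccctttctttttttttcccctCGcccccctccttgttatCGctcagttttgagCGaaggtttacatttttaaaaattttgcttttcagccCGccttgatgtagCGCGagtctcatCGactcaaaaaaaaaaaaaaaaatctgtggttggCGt
Ebf1 start 2: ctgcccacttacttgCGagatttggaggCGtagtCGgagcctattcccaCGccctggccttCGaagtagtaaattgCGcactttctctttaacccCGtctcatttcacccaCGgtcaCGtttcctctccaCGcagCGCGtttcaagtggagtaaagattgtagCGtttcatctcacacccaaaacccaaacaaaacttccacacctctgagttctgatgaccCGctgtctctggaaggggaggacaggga
Tfap2d: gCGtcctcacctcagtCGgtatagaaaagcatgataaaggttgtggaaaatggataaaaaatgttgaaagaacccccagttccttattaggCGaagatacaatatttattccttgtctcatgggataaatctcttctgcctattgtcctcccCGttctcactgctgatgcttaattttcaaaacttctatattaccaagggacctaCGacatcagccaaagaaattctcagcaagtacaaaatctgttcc
Tfap2b: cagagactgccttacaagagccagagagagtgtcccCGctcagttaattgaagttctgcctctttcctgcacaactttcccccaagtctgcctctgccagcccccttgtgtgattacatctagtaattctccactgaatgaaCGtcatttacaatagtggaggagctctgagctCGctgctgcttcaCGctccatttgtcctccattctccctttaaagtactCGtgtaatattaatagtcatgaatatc

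The first Ebf1 sequence held 9 CG and the second 14 CG. Among 23307 RefSeq promoters, 51.6% held at least 9 CG in the same 250 bases and 38.4% held at least 14. The Tfap2d and Tfap2b sequences held 5 CG each, a count that 65.7% of promoters reached. The listed and the unlisted neighbour therefore had the same number of CG upstream of the start shown. Only 37 of the 55 members had an entry in the promoter table, so CG content was not compared across members.

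The first question was how many of these factors carried a peak anywhere in the gene body in the control pool. Of the 55 members, 16 were in the control gene body list, or 29.1% (95% Wilson interval 18.8 to 42.1%), against 11.9% of all genes. Gene length moved with listing: the listed members had a median length of 203.4 kb, the 39 members in neither list had a median of 9.8 kb, and the median of all genes was 14.3 kb. In classes of genes of the same length, 26.2% of other genes were in the control list, which corresponds to 14.4 of 55 genes. The members exceeded genes of like length by 2.92 percentage points, less than the width of the interval, and the sign of this difference turned to -1.68 when the expected share was taken from the peak rate per Mb and gene length. For the members under 100 kb alone it was 0.749 points (9.76% against 9.01%). Wilson intervals cover counting error only, and the part of gene length in the listing was described by these classes and not tested.

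In the DHT gene body list there were 6 members, or 10.9% (5.1 to 21.8%), against 4.36% of all genes. Genes of like length were listed at 12.2%, or 6.7 of 55 genes, so the members differed from them by -1.28 percentage points. With 20 in place of 50 length classes the difference was 0.111, and under the other settings that count all peaks it ran from -1.63 to -0.352. All 6 were also in the control list, against 59.5% of all DHT-listed genes. Across all genes 2.59% were in both lists. Beside the 6, 10 members were in the control list alone (9.36% of all genes), 0 were in the DHT list alone (1.76%) and 39 were in neither (86.3%). At the shares of like-length genes these numbers were 5.19, 9.21, 1.52 and 39.1. Each of the 4 counts thus lay within 2 genes of the number found for genes of the same length. Of the 16 members in the control list, 6 (37.5%, interval 18.5 to 61.4%) were in the DHT list too, against 21.7% of all control-listed genes and 35.3% of control-listed genes of like length.

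The 6 members in both lists were Prrx1, Nfib, Prdm16, Ebf1, Tshz2 and Zfpm2. Prrx1 encodes a homeobox factor of limb and craniofacial mesenchyme, and at 70.0 kb it was the shortest of the 6. Genes of its length were control-listed at 24.3% and DHT-listed at 8.2%. Nfib, a nuclear factor I gene of lung and brain development, was 216.6 kb long, a length at which 69.2% and 28.9% of other genes were listed. Prdm16 (321.2 kb), a zinc finger regulator of brown fat, and Ebf1 (390.0 kb), which directs B lymphocyte development, belonged to the longest class. Tshz2 (440.2 kb), a teashirt zinc finger gene, and Zfpm2 (449.6 kb) belonged to it too. In this class, which ran from 318.9 to 2390.4 kb, 90.1% of 517 other genes were control-listed and 53.8% DHT-listed.

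The 10 members in the control list alone began at 58.5 kb with Onecut2, a cut homeobox gene of liver, pancreas and retina, at a length where 22.0% of other genes were control-listed. Tfap2d (70.9 kb) is an AP-2 gene of the midbrain and retina, and genes of its length were listed at 24.3%. Satb1 (97.1 kb) encodes a chromatin organiser of thymocytes, and the corresponding share was 35.6%. Meis1 (139.2 kb), Meis2 (206.3 kb) and Pbx3 (200.6 kb) encode TALE homeodomain proteins that bind DNA together with Hox proteins. Zfhx4 (197.6 kb) encodes a large zinc finger homeobox protein of neural and muscle development, and Ebf2 (197.7 kb) a regulator of brown fat and neurons. Nfia (540.8 kb) drives gliogenesis, and Mecom (558.5 kb), which encodes EVI1, maintains haematopoietic stem cells. Nfia and Mecom were longer than each member in both lists, at a length where 53.8% of other genes were DHT-listed. The range of this group, 58.5 to 558.5 kb, overlapped that of the members in both lists, 70.0 to 449.6 kb, with medians of 197.7 and 355.6 kb.

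**Figure D1:**
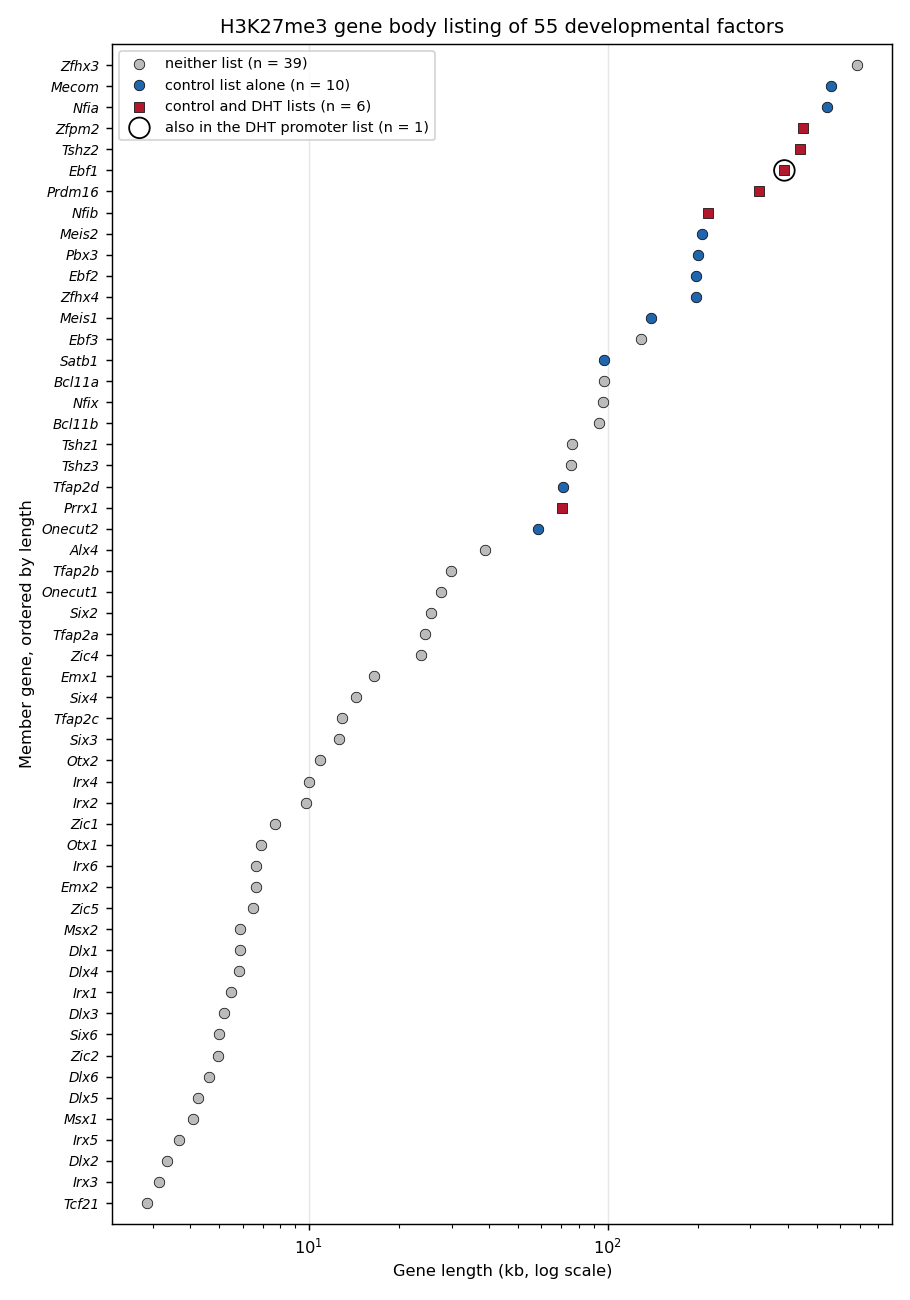
Gene length (kb, log scale) of the 55 members, 1 row per gene ordered by length, with colour and symbol giving whether the gene was in both gene body lists, in the control list alone or in neither. The 32 shortest members were all in neither list, and 16 of the 23 members from 58.5 kb upward were listed; the ring marks Ebf1, in the DHT promoter list.

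Ordered by length, listing of the members began at Onecut2. The 32 members shorter than Onecut2 were all absent from the control list, and genes of their lengths would have given 1.07 listed. Of the 23 members at least as long as Onecut2, 16 were listed (69.6%), against 13.3 genes at the shares of like-length genes. This limit of length was read from the members themselves and is a description. Among the remaining genes, 46.5% of those at least as long as Onecut2 and 4.76% of the shorter ones were in the control list.

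The short members were the compact homeobox and Zic genes. The 26 genes of the Irx, Dlx, Zic, Emx, Otx, Msx and sine oculis (Six2 to Six6) families were between 3.1 and 25.5 kb long, and 0 were in either gene body list. Genes of like length would have given 0.593 in the control and 0.182 in the DHT list, less than 1 gene in each. The Iroquois genes Irx1, Irx2, Irx3, Irx4, Irx5 and Irx6, which pattern the neural tube, heart and limb, started at 3.1 kb in Irx3. The distal-less genes Dlx1, Dlx2, Dlx3, Dlx4, Dlx5 and Dlx6, factors of forebrain interneurons, jaw and limb, were 3.3 to 5.9 kb long. Six2, Six3, Six4 and Six6, factors of kidney, forebrain, muscle and eye, reached 25.5 kb in Six2. The longest curated transcript of Six2 spans 4.0 kb. By transcript length 1.1% of other genes like Six2 were control-listed, and by gene length 8.8%. The zinc finger genes Zic1, Zic2, Zic4 and Zic5 of the dorsal neural tube and cerebellum reached 23.7 kb in Zic4. Emx1 (16.5 kb), Emx2 (6.7 kb), Otx1 (6.9 kb) and Otx2 (10.9 kb) pattern the forebrain and head, and Msx1 (4.1 kb) and Msx2 (5.9 kb) respond to BMP signals in tooth, skull and limb. The shortest member, Tcf21 (2.9 kb), a factor of kidney, heart and gonad mesenchyme, was in neither list either.

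The longer families were split. All 3 Meis and Pbx genes were control-listed and 0 were DHT-listed, against 1.85 and 0.752 genes at like length. Both PR domain genes, Prdm16 and Mecom, were control-listed against 1.8, and Prdm16 alone of them was DHT-listed. In the EBF family Ebf1 and Ebf2 were listed and Ebf3, a factor of neurons, was not. In the nuclear factor I family Nfia and Nfib were listed and Nfix, a factor of muscle and neural stem cells, was not. Of the 3 teashirt genes Tshz2 was listed, while Tshz1 (76.1 kb), needed for olfactory bulb and palate, and Tshz3 (75.4 kb), needed for ureter smooth muscle and cortex, were in neither list. Both Bcl11 genes were in neither list, against 0.685 of 2 at like length in the control list. Among the members of the Ebf, Nfi, Tshz, Onecut and Tfap2 families each listed gene was longer than each unlisted one, while of the Zfhx members the listed gene was the shorter. Relatives of these families outside the 55 genes were counted too, and the order by length was not carried over to them. Of 36 such paralogues, 5 were control-listed (13.9%, against 15.3% at like length) and 0 were DHT-listed (against 5.11%, or 1.84 genes).

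Zfhx3, a zinc finger homeobox gene of neurons and the circadian clock, was the longest member at 682.3 kb and was in neither list. In its length class 90.1% of other genes were control-listed and 53.8% DHT-listed. Its longest curated transcript spans 247.0 kb, and by transcript length the shares were 71.0% and 28.6%. The next longest unlisted members were Ebf3 at 129.1 kb (46.6% of like-length genes control-listed), Bcl11a at 97.0 kb (35.6%), Nfix at 96.5 kb and Bcl11b at 93.7 kb (33.0% each). BCL11A silences fetal globin genes and BCL11B commits thymocytes to the T lineage. Beside Tshz1 and Tshz3, the shorter unlisted members above 20 kb were the craniofacial gene Alx4 (38.9 kb), the liver and pancreas gene Onecut1 (27.7 kb), Six2, Zic4, and the AP-2 genes Tfap2b (29.9 kb) and Tfap2a (24.4 kb) of the neural crest. Tfap2c, an AP-2 gene of trophoblast and primordial germ cells, was 12.9 kb long and also unlisted.

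**Figure D2:**
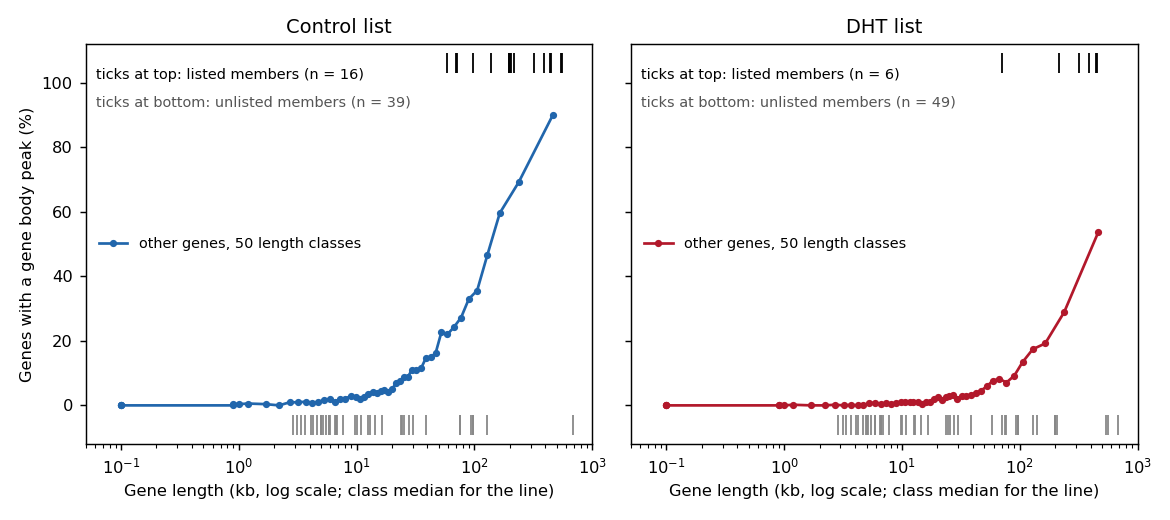
Share of other genes with a gene body peak (%) in 50 classes of gene length (kb, log scale) for the control and the DHT list, with the members drawn at their own lengths as listed or unlisted. The share of other genes climbs with length to 90.1% (control) and 53.8% (DHT) in the longest class, where 7 members lie.

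Within bands of length the counts followed the same order. Of 26 members under 20 kb, 0 were in either list, against 0.477 (control) and 0.138 (DHT) genes at like length. Of 15 members from 20 to 100 kb, 4 were in the control list (26.7%, against 21.4% at like length) and 1, Prrx1, in the DHT list (6.67%, against 6.71%). Of 14 members over 100 kb, 12 were in the control list (85.7%, against 76.4%) and 5 in the DHT list (35.7%, against 39.7%). The control list thus held all members over 100 kb except Zfhx3 and Ebf3. Of the control-listed members, 1 of 4 in the middle band and 5 of 12 in the long band (41.7%) were also DHT-listed.

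**Figure D3:**
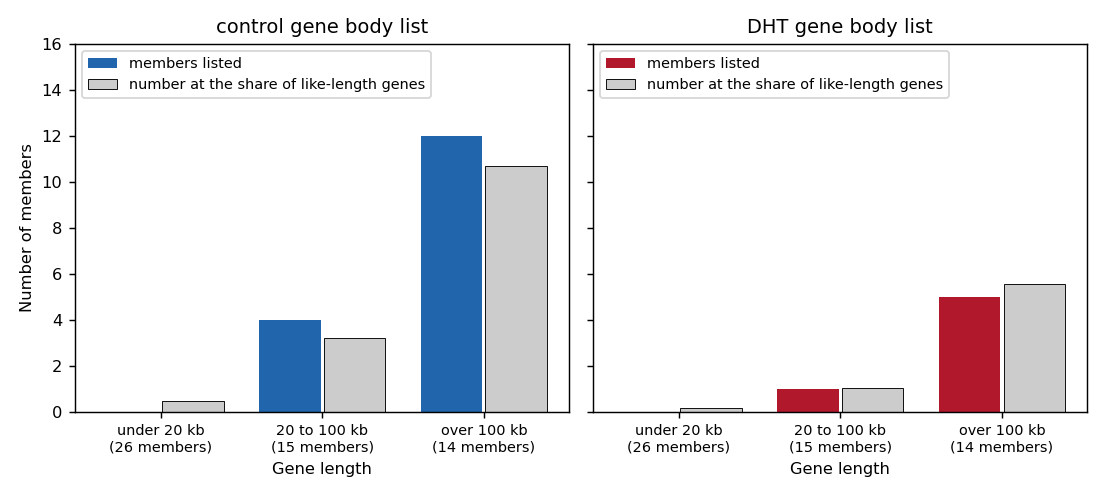
Number of members in the control (left) and DHT (right) gene body list in 3 bands of gene length, beside the number that the shares of like-length genes would give. Bars start at 0; over 100 kb the members listed were 12 against 10.7 in the control and 5 against 5.56 in the DHT list.

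The promoter lists hold genes with a peak within 1 kb of the transcription start. In the control promoter list there were 0 of 55 members, against 0.603% of all genes. In the DHT promoter list there was 1 member, Ebf1 (1.82%, interval 0.322 to 9.61%), against 0.206% of all genes, or 0.111 of 55 genes at the share of the others. Ebf1 was thus listed in the gene body in both pools and at the promoter in the DHT pool alone. A single listed gene has no error here, and the promoter whose upstream bases are printed above may not be the one that was listed.

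Another 4 lists name genes that the authors called up- or downregulated by DHT, either with a peak in the gene itself or assigned to a distal enhancer. Of the 55 members, 0 were in the gene body list of upregulated genes (0.0839% of all genes) and 0 in that of downregulated genes (0.0572%). In the enhancer lists there were 0 members among the upregulated genes (0.233%) and 0 among the downregulated genes (0.126%). With such short lists, a count of 0 among 55 genes says little about the members. The lists do not show which members were expressed.

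Several members lie next to each other in the genome. In GRCm38.p6, 20 members formed 9 clusters of adjacent members: Tfap2b with Tfap2d, Dlx3 with Dlx4, Dlx1 with Dlx2, Dlx5 with Dlx6, Zic2 with Zic5, Zic1 with Zic4, Six2 with Six3, Irx1 with Irx2 and Irx4, and Irx3 with Irx5 and Irx6. Of these 20 genes, Tfap2d was listed, in the control list alone, while its neighbour Tfap2b was not. Some of the genes that flank unlisted members were long and listed, and the examples named here were picked from those. Irx3 lies beside Fto (355.1 kb, control list alone), Irx1 beside Adamts16 (114.0 kb, both lists), and Otx1 beside Wdpcp (326.7 kb) and Ehbp1 (281.3 kb), each of which was in both lists. Tcf21 lies beside Eya4 (247.9 kb, both lists) and Tfap2b beside Pkhd1 (560.3 kb, both lists). Ebf3 lies beside Mgmt (233.7 kb, DHT list alone).

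Over all unlisted members, 18 of 56 flanking genes were in either gene body list (32.1%), against 20.6 genes at the shares of their own lengths, and the median length of the flanking genes was 71.7 kb. Across all genes 86.3% were in neither list. Of the 31 genes that flank control-listed members, 11 were listed (35.5%), against 10.5 at like length. The flanking genes of either kind were therefore listed about as often as other genes of their length. These lists cannot place a peak within a gene or between genes. Of the 16 control-listed members, 2 overlap another gene that was listed: Ebf2 overlaps 4930438E09Rik (65.7 kb) and Gm6878 (9.8 kb), and Zfhx4 overlaps 2700069I18Rik (43.0 kb). All 3 were in the control list alone, and a peak of the member cannot be told apart from a peak of the overlapping gene.

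Beside the members stand 8 other developmental families. Over the Hox, Pax, Gata, Sox, Tbx, Fox, Lhx and Nkx families together, 155 genes with a median length of 6.6 kb, 11 were in the control list (7.1%, against 8.57% at like length) and 9 in the DHT list (5.81%, against 3.3%). The members, with a median length of 24.4 kb, had 29.1% against 26.2% and 10.9% against 12.2%. Hox genes, the family set apart from the members, gave 0 of 39 in each list, against 0.881 and 0.237 genes at like length. Pax genes gave 3 of 9 in the control list and 4 of 9 in the DHT list, against 2.04 and 0.565, and their median length was above that of the members. None of the 155 genes was in a promoter list. The difference between the members and these families was not tested, since gene families are fixed lists and each group has 1 pooled list.

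**Figure D4:**
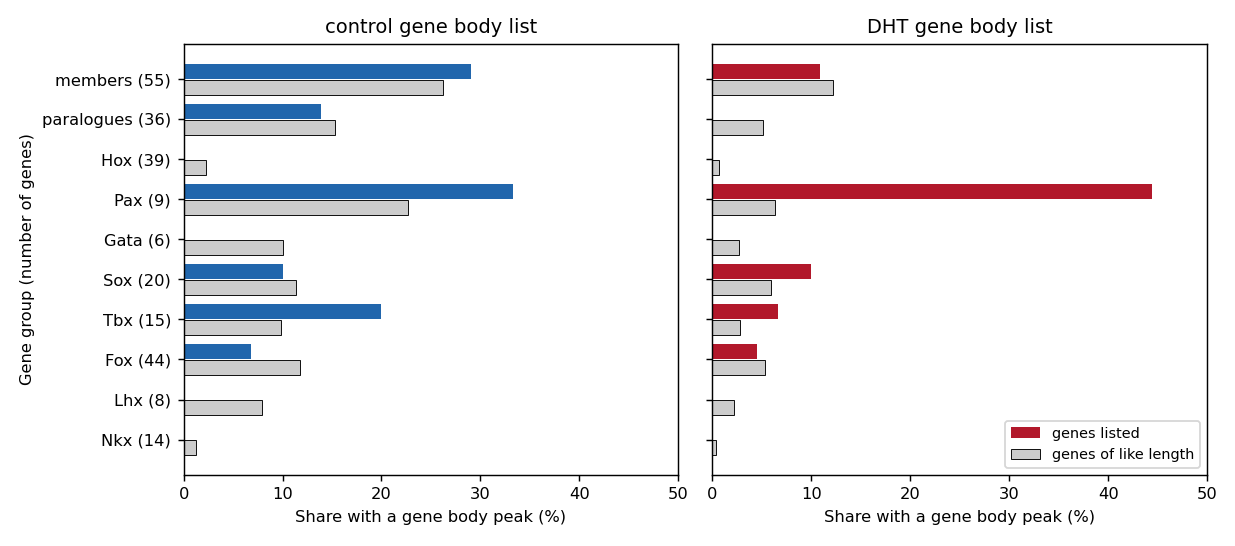
Share of genes with a gene body peak (%) in the control (left) and DHT (right) list for the 55 members and for other developmental families, beside the share of genes of like length. Bars start at 0; the members stand at 29.1% against 26.2% in the control list, and Hox genes at 0 in both lists.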

How the data were processed

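H3K27me3 ChIP-seq was carried out on 6 samples of mouse granulosa cells, 3 per group by the labelled agent. Per the submitters' processing notes, the authors used Bowtie2 2.3.4, MACS2 2.1.1 and mm9. Broad peaks were called at a q-value of 0.05 or less. How replicates were combined was not stated, and the labels and the methods differ in the number of pooled mice. The deposited peak lists (16345 control and 3975 DHT peaks) give a score, a fold enrichment ratio, and −log10 p-values and q-values. Of these, peak positions and −log10 q-values were used here for the peak rate. The median peak width was 431 bases in the control and 319 bases in the DHT list. The median fold enrichment was 3.46 (control) and 4.21 (DHT). The authors' 8 gene lists hold symbols without values. Depth per sample is unknown.

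Gene symbols were matched to the 26220 genes that RefSeq gives a curated transcript (GRCm38.p6), which also gave lengths and neighbours. In the control gene body list 3133 of 3144 symbols matched, and in the DHT list 1142 of 1146. Peaks were not assigned to genes, as an annotation of the files' build was not used here. Like-length shares are the listed shares of genes that are no members in 50 classes of gene length, taken at each member's length and summed. Intervals are 95% Wilson intervals. No test was run, because each group has 1 pooled list. The members and lists were chosen with earlier results of these data known. By rule every member is named; of members in no list, the 5 longest and the shortest are given with length. Paralogues outside the 55 genes are given as counts, and single paralogues are not reported here. The lengths of further unlisted members and the flanking genes were added after their values were seen. Python 3.11.15, numpy 2.4.6, scipy 1.17.1, pandas 2.3.3 and matplotlib 3.10.9 were used, and the length matching was tested on simulated data.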

Additional observations from a re-analysis of the deposited data

How the results depend on the processing

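There were 32 alternatives over 5 results: the shares in the 2 gene body lists, the share of control-listed members also in the DHT list, and the counts in the promoter lists. Promoter counts were set against all other genes, the rest against like-length genes. In 29 the difference kept its direction and moved by less than its counting interval, and 3 turned the direction. Several of the 29 could not turn. With 0 members in the control promoter list that difference is always negative, and 1 listed member kept the DHT promoter difference positive. Keeping 1 member per cluster left the difference in the share also in the DHT list at 2.19. With the peak rate per Mb times gene length, the control difference was -1.68 percentage points (2.92 with length classes). With 20 length classes the DHT difference was 0.111 (-1.28 with 50 classes). The cause was not tested for either. With the peak rate limited to q-values of 0.01 or less, differences of 11.6 (control) and 2.1 (DHT) were found. This setting lowers the expected share alone, since the gene lists rest on peaks at 0.05. It can only raise the difference and says nothing of stability, though its control value is counted among the 29. The other control differences ran from 0.749, for members under 100 kb, to 4.28, with 1 member per cluster of neighbours. With the homeobox, zinc finger and AP-2 members alone, chosen after seeing the data, the differences were 3.33 and -1.63.

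No paired analysis was possible because each group has 1 pooled list and holds nothing for single replicates. Fits without each replicate in turn, or blocked by replicate number, were likewise not run. Matching on promoter CG as well as length was not run, since 37 of 55 members (67.3%, under the 80% needed) had a promoter entry. Depth is unknown, so an unlisted gene is not shown to lack the mark.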
